A study of Solanum lycopersicum with 6 samples.

Results

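Cell wall genes coding for a mannanase, an expansin, a cellulase and a xyloglucan-modifying enzyme were followed in the pericarp, or outer flesh, of tomato (Solanum lycopersicum) fruit. They were chosen by identifier: MAN4a (Solyc01g008710.4, chromosome 1), EXP1 (Solyc06g051800.3, chromosome 6), CEL2 (Solyc09g010210.3, chromosome 9) and XTH1 (Solyc01g099630.3, chromosome 1). All 4 have a row in the authors' deposited table, which holds 8703 genes. RNA was sequenced from fruit at 38 days after anthesis, in 3 libraries of wild type (WT) and 3 of the transgenic lines called jmj7, both in the Ailsa Craig background. The series title names the target of those lines as SlJMJ7, a histone demethylase, and links it to fruit ripening. The labels give neither the kind of transgene, nor the number of lines, nor whether the libraries of a group came from separate plants, so p-values measure the spread between these libraries only.

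The fruit cell wall is a mesh of cellulose microfibrils tied together by hemicelluloses, mainly xyloglucan and mannans, and set in pectin. Endo-mannanases cut mannans, cellulases of the endo-glucanase type cut glucan chains, and XTH enzymes cut and rejoin xyloglucan. Expansins are not hydrolases; they loosen the contacts between the polymers. These families have members that act in growing green fruit and others that appear at ripening, when the wall is taken apart and the fruit softens.

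Some facts hold for the whole series. The jmj7 columns of the table carry a prefix found in no label and were assigned to that group by elimination, so every direction below rests on that assignment. No row could be tied to JMJ7, so its level was not used to check the labels. The table's genes took up 7508105 to 9155968 reads per WT library and 10937853 to 15254146 per jmj7 library, sums that cover only part of each library. The table was selected before deposit on the difference studied here: its smallest absolute log2 fold change is 1.00 and its largest p-value 0.0499. Fruit of the same age may differ in ripening stage, and such a difference and further effects of the genotype cannot be told apart. Likewise, in bulk tissue fewer cells of a type and less RNA per cell cannot be told apart.

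MAN4a, EXP1 and CEL2 were higher in jmj7 than in WT, and XTH1 was lower. MAN4a went from almost no reads to a level of 2246 ± 60.2 FPKM (SD, n = 3), CEL2 rose 242-fold and EXP1 184-fold, while XTH1 fell 27.3-fold (ratios of mean normalized counts, that is, reads divided by the deposited size factor of each library). FPKM, the authors' value per gene length and library size, is used below to compare levels between genes. Each of the 4 was called by edgeR's quasi-likelihood test at a Benjamini-Hochberg adjusted p under 0.05, as were all 7622 genes tested. Of those, 37.2% were called higher and 62.8% lower in jmj7, 100% in all, so a call by itself says nothing particular about these genes. Recomputing the size factors over the table put 47.3% of the called genes on the higher side.

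**Figure D1:**
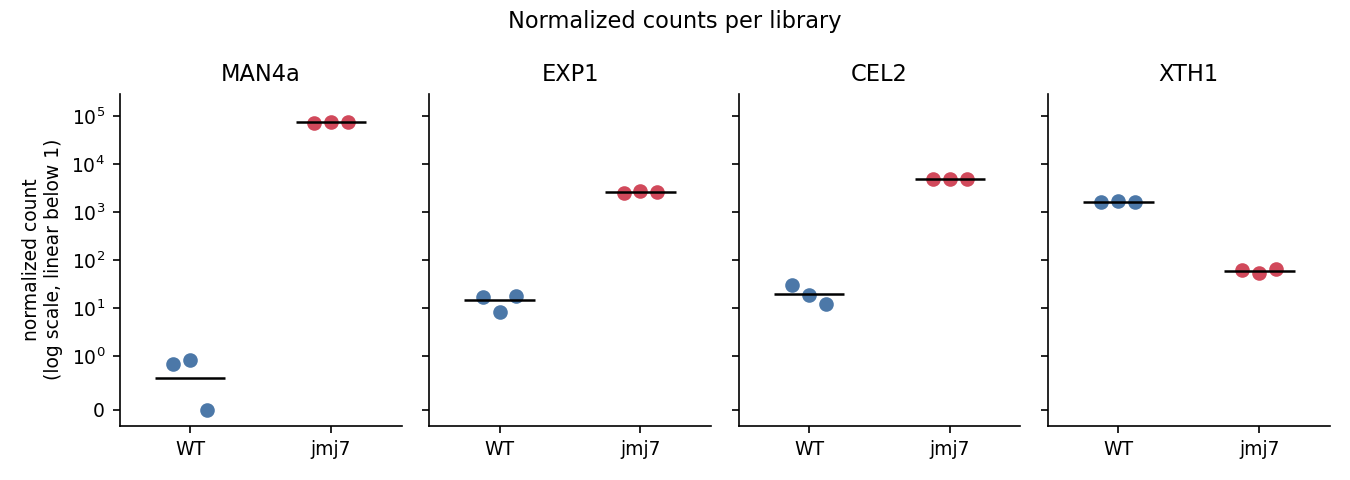
Normalized count of each gene in every library, on a log scale that is linear below 1, with 3 points per group and a bar at the group mean. MAN4a lies at 0 to 0.936 in WT and between 74394 and 78166 in jmj7, EXP1 and CEL2 lie from 8.43 to 30.1 in WT and from 2591 to 4960 in jmj7, and XTH1 is the one gene that is lower in jmj7.

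MAN4a encodes an endo-mannanase of ripening fruit. It had 1, 1 and 0 reads in WT libraries 1, 2 and 3, and 79285, 59194 and 61775 reads in the jmj7 libraries. In normalized counts the jmj7 libraries held 74394, 77940 and 78166. The groups were thus far apart, and at 0 or 1 read the WT libraries could not be told from each other. The ratio of pooled reads, 200254 in jmj7 against 2 in WT, each divided by the summed size factors, was 135457, with an exact 95% counting interval from 37498 to 1118518. This interval covers counting error only. Without WT library 3, the one with 0 reads, the ratio was 85348. The edgeR adjusted p was 1.61e-49. The fitted fold change of a gene with so few WT reads depends on the prior count. It is given below only to compare settings, and on 2 WT reads its stability there says little. The authors' deposited table lists a log2 fold change of 17.05 for it.

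In jmj7, MAN4a was among the most abundant transcripts of the table. Its level of 2176, 2275 and 2286 FPKM ranked 29th, 26th and 26th of 8703 genes in the jmj7 libraries, whereas in WT it ranked 8404th, 8369th and 8458th. It took 0.520% to 0.544% of all reads in the table's genes in jmj7. For comparison, of the 4 pectin genes listed, 2 rose and stood at 14216 ± 489 FPKM (PG2a, a polygalacturonase) and 1254 ± 21.3 FPKM (PL, a pectate lyase) in jmj7, so the mannanase transcript lay between them. The other 2 fell: PMEU1, a pectin methylesterase gene, went from 217 ± 1.44 FPKM in WT to 0.402 ± 0.239 in jmj7, and Solyc05g005560.4 went from 1280 ± 45.5 to 2.94 ± 0.392 (SD, n = 3).

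EXP1 encodes the expansin best known from ripening tomato fruit. WT libraries 1 to 3 gave 20, 9 and 24 reads, and jmj7 libraries 1 to 3 gave 2761, 2101 and 2146. Its normalized counts were 17.2, 8.43 and 18.3 in WT and 2591, 2766 and 2715 in jmj7. WT library 2 was the lowest, and no WT value came near any jmj7 value. edgeR gave a log2 fold change of 7.48 ± 0.203 (SE) with an adjusted p of 1.16e-38, and pooled reads gave a ratio of 179 with an exact counting interval from 137 to 239. In FPKM the level went from 0.618 ± 0.231 in WT to 77.0 ± 2.51 in jmj7 (SD, n = 3).

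CEL2 encodes an endo-glucanase expressed in ripening fruit and in abscission zones. Its reads numbered 35, 20 and 16 in WT, and 5286, 3739 and 3870 in jmj7. Its normalized counts were 30.1, 18.7 and 12.2 in WT and 4960, 4923 and 4897 in jmj7. The jmj7 libraries lay close together, and WT library 1 was the highest of its group. By edgeR, the log2 fold change came to 7.93 ± 0.182 (SE) at an adjusted p of 6.37e-41, and the pooled ratio was 246, with an exact counting interval from 195 to 315. Its FPKM level was 0.642 ± 0.292 in WT and 105 ± 0.724 in jmj7.

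XTH1 encodes a xyloglucan endotransglucosylase/hydrolase. Its reads were 1933, 1830 and 2151 in WT and 68, 42 and 51 in jmj7. The normalized counts of 1664, 1713 and 1643 in WT stood well above the 63.8, 55.3 and 64.5 of jmj7. XTH1 was still detected in every jmj7 library, unlike MAN4a in WT. On the log2 scale the change was -4.76 ± 0.115 (SE, edgeR) with an adjusted p of 8.09e-35, and pooled reads were 27.2-fold lower in jmj7 with an exact counting interval from 23.2 to 32.0. In FPKM the level went from 67.5 ± 1.30 to 1.68 ± 0.143. As a deposited value, the authors' deposited table gives log2 fold changes of 7.49 for EXP1, 7.94 for CEL2 and -4.77 for XTH1.

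The groups did not overlap for any of the 4 genes, which was so for 99.7% of the genes tested. Ranked by fitted fold change, CEL2 was 89th and EXP1 104th of 2837 genes called higher, and XTH1 was 973rd of 4785 called lower. On FPKM, limma with log2(FPKM + 0.1) gave differences of 14.14 ± 0.128 (SE) for MAN4a, 6.80 ± 0.239 for EXP1, 7.22 ± 0.254 for CEL2 and -5.25 ± 0.0730 for XTH1. The largest of the 4 limma adjusted p was 8.38e-08, and 98.8% of the 8703 genes passed this test. The pseudocount understates the change of genes as low as MAN4a in WT. It also shapes their SE, which for MAN4a was 0.615 with a pseudocount of 0.01 FPKM and 0.0361 with 1 FPKM. FPKM and normalized counts are on different scales per library, so that the log2 fold of each gene is 0.56 higher by normalized counts than by FPKM before any pseudocount.

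Per gene length, the highest and the lowest of the 4 genes changed places between the groups. In WT, XTH1 was highest at 66.1 to 68.6 FPKM; CEL2 (0.383 to 0.958) and EXP1 (0.352 to 0.770) overlapped; and MAN4a was lowest at 0 to 0.0400. In jmj7, MAN4a was highest, followed by CEL2 at 105 to 106 FPKM, EXP1 at 74.2 to 79.1 and XTH1 at 1.51 to 1.77, with no overlap between neighbours. The summed level of the 4 genes was 68.8 ± 1.37 FPKM in WT and 2430 ± 61.8 in jmj7 (SD, n = 3). XTH1 made up 98.1% of that sum in WT, and MAN4a 92.4% of it in jmj7.

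The changes of EXP1 and CEL2 were compared through the ratio of the 2 genes within each library. The log2 ratio of CEL2 to EXP1 in FPKM was 0.04 ± 0.920 in WT and 0.45 ± 0.0562 in jmj7 (SD, n = 3), a difference of 0.41. An exact two-sided permutation test gave p = 0.7, where 3 against 3 libraries cannot go below 0.1, so the folds of the 2 genes were not told apart and are not shown to be equal either. Inside jmj7, EXP1 stood at 0.700, 0.753 and 0.743 of the CEL2 level, and in WT at 0.766, 0.603 and 2.01. The WT ratio thus varied widely, on 9 to 35 reads per library and gene. MAN4a stood 28.8 to 29.4 times above EXP1 and 20.5 to 21.8 times above CEL2 in the jmj7 libraries.

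The spread between libraries was set beside that from counting alone. For the low WT values the coefficient of variation of normalized counts was 37.0% for EXP1 and 44.5% for CEL2, where counting alone gives about 23.8% and 20.6%. In jmj7 it was 3.36% for EXP1 and 0.643% for CEL2, against 2.07% and 1.53% from counting. MAN4a varied by 2.75% in jmj7, against 0.387% from counting. XTH1 varied by 2.15% in WT and 8.38% in jmj7, against 2.25% and 13.7%. The differences between the groups were many times larger than any of these spreads.

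Other wall genes were taken from a list of expansins, cellulases, XTH enzymes and glycosidases. With the 4 genes above it held 32 identifiers; 2 were taken out because the reference contradicted their names. Of the 30 kept, 22 have a row, 8 have none (EXP2, CEL3, TBG1, TBG2, TBG5 and XYL2 among them) and 20 passed the low-count filter. Of those 20, 10 rose and 10 fell in jmj7, with a median log2 fold change of -0.72, against -1.43 over all genes tested, of which 37.2% rose and 62.8% fell. Without the 4 chosen genes, 7 rose and 9 fell of 16, and the median was -2.94, on the other side of that of all genes. Nothing particular to the list is read from these counts. Members with no row were not analysed here, and those with a row had already been selected for a difference.

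**Figure D2:**
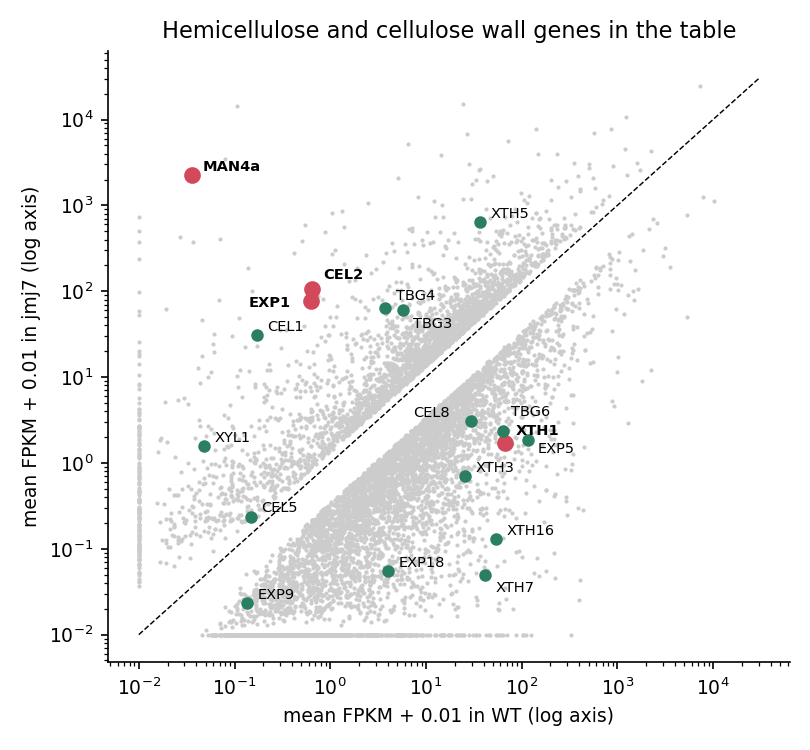
Mean FPKM plus 0.01 in jmj7 against WT on log axes for all 8703 genes (grey), the 4 chosen genes (red, bold) and other listed wall genes whose names the reference holds (green); the dashed line marks equal levels. MAN4a stands far from the line at the upper left, with EXP1 and CEL2 nearer to it, and XTH1 lies below the line beside EXP5 and TBG6.

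Among expansins, EXP5, an expansin gene of growing fruit, fell: WT held 3389 ± 179 normalized counts and jmj7 held 78.9 ± 12.9 (SD, n = 3). The log2 fold change was -5.44 ± 0.110 (SE). EXP18 had 349 reads in WT and 4 in jmj7 and also fell. EXP9 was below the low-count filter, with 53 reads in WT and 6 in jmj7. EXP1 was therefore the one higher gene of the 4 named expansins in the table, and EXP2, an expansin gene with no row, was not analysed here. EXP5 made up 96.0% ± 0.858 of the summed FPKM of these 4 genes in WT, and EXP1 97.6% ± 0.308 in jmj7. The sum itself was 120 ± 6.61 FPKM in WT and 78.9 ± 2.67 in jmj7.

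Among cellulases, CEL1, an endo-glucanase gene also known from abscission zones, rose with CEL2. Its normalized count was 4.93 ± 2.37 in WT and 1396 ± 47.6 in jmj7 (SD, n = 3), which is 8.15 ± 0.351 (SE) on the log2 scale. CEL8, a related gene, fell from 1295 ± 8.86 to 195 ± 17.7 normalized counts. CEL5 was low in both groups, at 62 and 112 pooled reads; its rise of 2.41-fold was no longer called when libraries were scaled by their total reads in the table (edgeR adjusted p = 0.42). CEL8 made up 96.9% ± 1.13 of the summed FPKM of these 4 cellulase genes in WT. In jmj7 CEL2 held 75.5% ± 0.481 and CEL1 22.2% ± 0.483. Their sum was 30.7 ± 0.525 FPKM in WT and 139 ± 1.85 in jmj7.

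The XTH genes moved in both directions. XTH5 rose: its normalized count was 852 ± 85.5 in WT and 21875 ± 394 in jmj7 (SD, n = 3), and its log2 fold change 4.68 ± 0.0469 (SE). XTH3, XTH7 and XTH16 fell with XTH1: XTH7 went from 3996 pooled reads in WT to 4 in jmj7, XTH16 from 4180 to 10 and XTH3 from 2533 to 73. In WT the summed FPKM of these 5 genes was spread over all of them, with XTH1 at 29.9% ± 0.770, XTH16 at 24.1% ± 0.683, XTH7 at 18.3% ± 0.723, XTH5 at 16.3% ± 1.38 and XTH3 at 11.4% ± 0.570. In jmj7 XTH5 alone held 99.6% ± 0.00721, and the sum was 644 ± 10.8 FPKM against 226 ± 5.72 in WT. Of the 4 others listed with this family, 1 has no row, and 3 have names that the reference does not hold. Of these 3, 1 rose and 2 fell, and they are not in the sums above. Solyc07g056000.2, which fell, stood higher in WT than XTH1, at 98.1 ± 1.99 FPKM. In jmj7 it was at 4.98 ± 0.654 (SD, n = 3). The shares are thus those among the 5 named genes only.

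Beta-galactosidases remove galactose from wall polymers, mainly from pectic side chains. TBG4, which is linked to softening in ripening fruit, rose from a normalized count of 181 ± 14.9 to one of 4526 ± 105 in jmj7, and TBG3 rose from 295 ± 7.19 to 4651 ± 67.5 (SD, n = 3). TBG6 fell from 5558 ± 51.4 to 306 ± 19.1 normalized counts. Of their summed FPKM, TBG6 held 87.0% ± 0.320 in WT, and TBG4 and TBG3 held 50.1% ± 0.328 and 48.1% ± 0.191 in jmj7. XYL1, a xylosidase gene, rose from 7 pooled reads in WT to 324 in jmj7, a level of 1.55 ± 0.143 FPKM. All of these named genes that were tested, CEL5 apart, kept their direction and call under each of 5 scalings of the libraries. Most genes of the table were called under these scalings too. With size factors recomputed over the table, 3023 of 7554 genes tested were called higher and 3368 lower. With total reads in the table, 2100 of 7734 were called higher and 4958 lower. Nothing particular to the named genes is read from the kept calls.

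**Figure D3:**
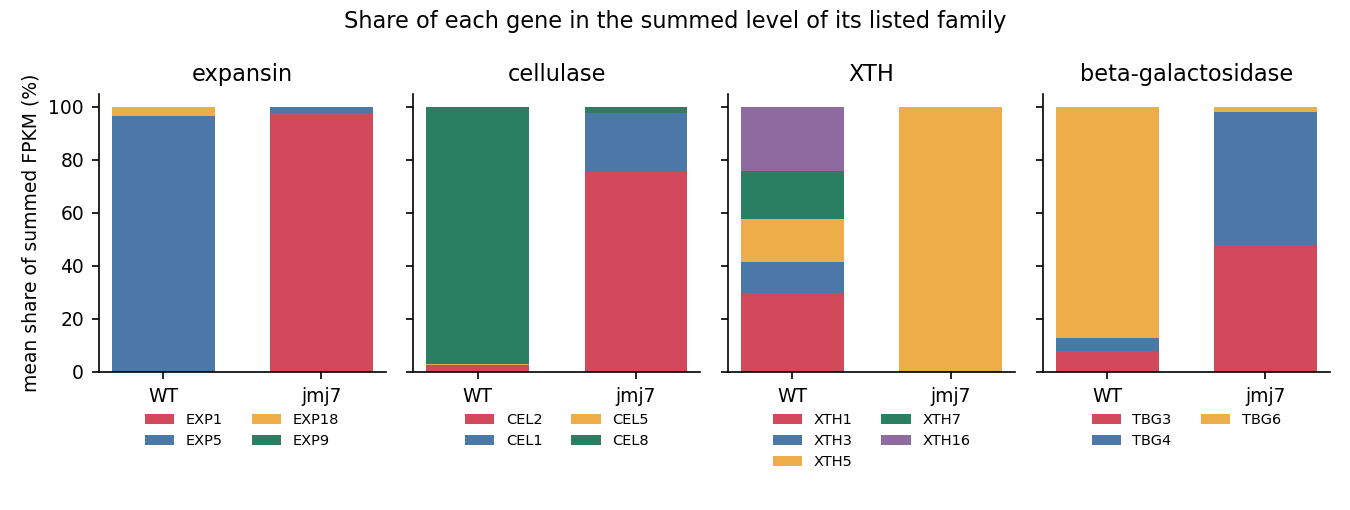
Mean share of each named gene in the summed FPKM of its family, in percent, in WT and jmj7 (3 libraries each; only genes with a row in the table). Among the genes shown for each family, those that held most of the sum in WT held little in jmj7. Most of it lay with EXP5 in WT and EXP1 in jmj7, and with CEL8 in WT and CEL2 and CEL1 in jmj7. Likewise it lay with XTH1 and 3 others in WT and XTH5 in jmj7, and with TBG6 in WT and TBG4 and TBG3 in jmj7. Genes with no row are not in these sums, nor are listed genes with a row whose names the reference contradicts or does not hold. All genes with a row had already been selected for a difference. The shares are therefore not those of whole families.

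These shares are ratios within a library, so they do not depend on how libraries were scaled. They cover only genes already selected for a difference, so they do not describe whole families. The cuticle, the outer skin of the fruit wall, was followed by 6 marker genes of the epidermis. Of these, 3 have a row, and all 3 fell in jmj7, as did 62.8% of all genes tested. CD2, CER6 and SHN3 have no row and were not analysed here. Those 3 with a row summed to 4523 to 4875 normalized counts in the WT libraries and 79.0 to 96.6 in the jmj7 libraries. Among them 2, CD1 (a cutin synthase gene) being 1, had 0 reads in jmj7. TTS1 fell 5.16-fold in mean normalized counts and kept 231 pooled reads in jmj7. The part of epidermal cells in the lower levels of XTH1, EXP5 and the other falling wall genes was not tested.

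Genes with a pattern like that of the chosen ones were sought over the 6 libraries by the Euclidean distance of log2(FPKM + 0.1). Nearest to MAN4a was Solyc08g066240.3, at a distance of 1.54, with 0.0214 to 0.1001 FPKM in WT and 3427 to 3544 FPKM in jmj7. EXP1 and CEL2 lay 1.35 apart and were among the 5 nearest genes of each other, with CEL2 as the 4th nearest of EXP1 and EXP1 as the 3rd nearest of CEL2. Solyc11g011210.2, at 80.8 to 91.7 FPKM in jmj7, was closer to both, at distances of 0.738 and 0.841. Nearest to XTH1 was Solyc08g008630.3, at a distance of 0.136, with 63.9 to 67.8 FPKM in WT and 1.51 to 1.72 in jmj7. The files and the reference name none of these 3 genes. The likeness mainly reflects the level in each of 2 groups.

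Genes with nearby locus numbers, up to 10 steps on either side, also differed, as every gene in the table does. Beside MAN4a, 6 such genes have a row, and 4 were called higher and 1 lower. Its next neighbour, Solyc01g008700.3, rose as well: it had 307 ± 6.48 normalized counts in WT and 4867 ± 126 in jmj7 (SD, n = 3), a change of 3.99 ± 0.0541 (SE) on the log2 scale. Unlike MAN4a it was well expressed in WT, at 1087 pooled reads. Beside EXP1, 4 of 5 were higher and 1 lower, and 3 of these 4 were called higher under all 5 scalings. Beside CEL2, 3 of 3 were higher. Around XTH1, 8 of 10 were called higher, against its own fall, and 1 lower; under all 5 scalings 5 of these 8 kept the call, and the lower one lost it. Over all genes tested 37.2% were called higher with the deposited size factors. With total reads in the table, 2100 of 7734 genes tested were called higher. The share of all genes called higher under all 5 scalings was not computed, so the counts under all 5 have no such value beside them. The sources used here do not say how reads of adjoining genes were assigned or whether strand was used.

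**Figure D4:**
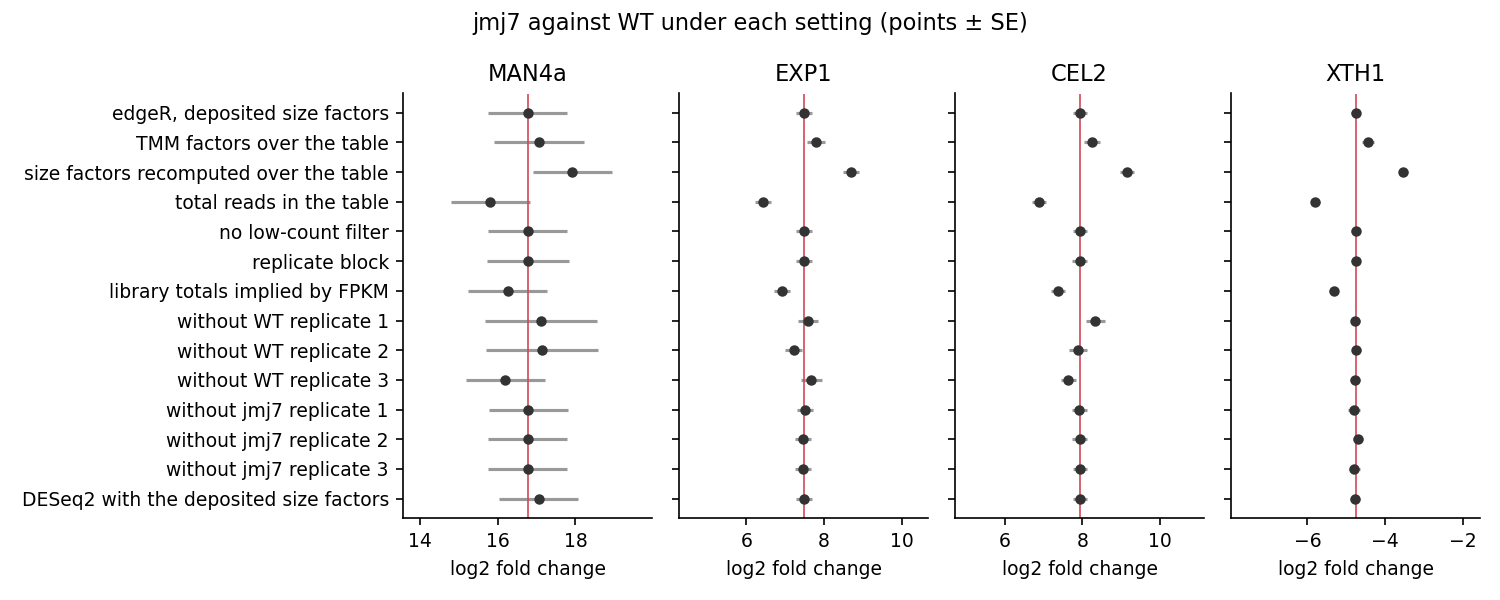
Log2 fold change of jmj7 against WT, as points with ± SE, for each of the 4 genes under the reported setting (red line), other library scalings, no low-count filter, a replicate block, DESeq2 and each library left out. MAN4a stays between 15.81 and 17.92, EXP1 between 6.44 and 8.70, CEL2 between 6.89 and 9.16, and XTH1 between -5.80 and -3.53.

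The size of each fold moved with the scaling of the libraries. Against the deposited size factors, size factors recomputed over the table shifted the log2 fold change of all genes by 1.23 (median) and total reads in the table by -1.04. EXP1 was at 8.70 and 6.44, CEL2 at 9.16 and 6.89, and XTH1 at -3.53 and -5.80 under these 2 scalings. The direction of all 4 genes was kept under both.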

How the data were processed

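The deposited table holds read counts per gene and library, per the file headers. Alignment used HISAT2, per the submitters' processing notes; the sources used here give neither its version nor the genome build, the read counter or the strandedness. FPKM values from the authors are also deposited. The authors also deposited a signal per library, here the normalized count, which is each read count over a size factor constant within that library. For the same comparison the table carries deposited log2 fold changes and p-values. The labels put 3 libraries in each group; depth sets the precision of low values, and counting intervals are exact binomial.

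The test on counts was edgeR 4.0.16 under R 4.3.3 (glmQLFit, glmQLFTest, filterByExpr with a minimum count of 10), scaled by the deposited size factors, with Benjamini-Hochberg adjustment over 7622 genes. SE is the Wald error, at least the counting error. FPKM was tested with limma 3.58.1 on log2(FPKM + 0.1), without a filter. DESeq2 1.42.0, other scalings, no filter, a replicate block and leaving out each library were alternatives. Fits were tried on simulated data in which most genes were unchanged. All genes of this table had been selected for a difference, so that trial does not bear on the calls reported here. Replicates differed by more than sampling noise (chi-square per gene from 1.60 to 3.52). Symbols were printed where the reference gene table (SLM_r2.1, no Solyc identifiers) has them on the chromosome of the identifier and in compatible order (tolerance 0.5 Mb). Text names the 4 genes, listed genes so checked, nearest patterns and locus neighbours; of the last 2 kinds a few were printed. Members and lists were chosen with earlier results of these data known.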

Additional observations from a re-analysis of the deposited data

How the results depend on the processing

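No direction or call of the 4 genes changed in 13 alternative count fits or in 10 alternative FPKM fits per gene. With each library left out in turn, the log2 fold change ranged from 16.19 to 17.15 for MAN4a, 7.23 to 7.68 for EXP1, 7.63 to 8.33 for CEL2 and -4.80 to -4.70 for XTH1. The pooled ratio of MAN4a ranged from 85348 to 189140 with a library left out and from 65888 to 317557 over scalings, inside its counting interval. With pseudocounts of 1 and 0.01 FPKM, its log2 FPKM difference was 11.10 and 16.25. The list had 9 or 10 higher and 10 to 12 lower genes under all alternatives. Scaling by library totals implied by FPKM was added after seeing the data and gave 16.26, 6.92, 7.37 and -5.32 for MAN4a, EXP1, CEL2 and XTH1.

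With the replicate block the log2 fold changes were 16.77, 7.48, 7.93 and -4.76, and no call of the 4 changed. Deviations of same-numbered libraries correlated at -0.028, 0.0224 and -0.0109 over 4673 genes, and not every library correlated best with its own number. No pairing by number was thus seen. The labels do not say whether same-numbered libraries share anything else. Since the table holds only genes the authors had called, stability of a call says little.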
